A study of Homo sapiens with 15 samples.

Results

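The 10 genes described here encode proteins that mark mitochondria for removal or build the vesicle that removes them. They were taken by gene symbol from the deposited MRC5 table, which lists 16382 genes, and from the H196 table, which lists 16076 genes, and all 10 members were present and passed the low-count filter in both. BNIP3, BNIP3L and FUNDC1 are receptors in the mitochondrial outer membrane, and PINK1 is the kinase that starts the route through ubiquitin. FAM162A is a mitochondrial protein known as a target of hypoxia-inducible factor (HIF) and is not itself a mitophagy receptor. ULK1 and WIPI1 act when the autophagosome forms, MAP1LC3B and GABARAPL1 are ATG8 proteins of its membrane, and SQSTM1 (p62) is a cargo receptor.

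The series holds 5 groups of 3 libraries, 15 in all. MRC5, a human lung fibroblast line, was cultured alone (MRC5_Mo), with the neuroendocrine (NE) small cell lung cancer line H69 (MRC5_coH69) or with the non-NE small cell lung cancer line H196 (MRC5_coH196). H196 cells were cultured alone (H196_Mo) or with MRC5 (H196_Co). Partners shared medium for a week across a porous insert, the cells in the well below were sequenced, and no group carried a transgene or received a drug. Each cell type is represented by 1 line, fibroblasts of tumor origin were not used, and the sources describe parallel replicates without saying that they were separate cultures, so the p-values measure the spread between these libraries, which may be technical.

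Autophagy encloses cytoplasm in a double membrane that closes and fuses with the lysosome. In mitophagy the cargo is a mitochondrion. One route uses receptors of the outer membrane that bind ATG8 proteins directly, of which BNIP3 and BNIP3L are known as genes induced by hypoxia through HIF. FUNDC1 is known as a hypoxia-responsive receptor that is controlled largely by phosphorylation. In the other route PINK1 accumulates on damaged mitochondria and starts the tagging of their surface with ubiquitin, which is then read by cargo receptors such as SQSTM1 and OPTN. The measurements here are mRNA levels, and neither protein nor the rate of mitophagy was measured.

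The libraries held 16073597 to 19170560 counts. MRC5 libraries expressed 10 of 10 fibroblast markers at 1 CPM (a count scaled to a common library size) or more, with summed levels of 33810 to 37490 CPM in MRC5_Mo, 38390 to 39200 in MRC5_coH69 and 20750 to 21690 in MRC5_coH196. By gene, 5 of the 10 were higher and 4 lower by adjusted p in MRC5_coH196 against MRC5_Mo (edgeR), with a median log2 fold change of 0.04. In this comparison 37.2% of all tested genes were higher and 37.1% lower by adjusted p. The collagen genes COL1A1 (-1.57), COL3A1 (-2.09) and COL1A2 (-0.56) were lower, and PDGFRB (0.67) and COL6A3 (0.33) higher. In H196 libraries the same markers summed to 2.61 to 3.23 CPM in H196_Mo and 2.90 to 3.80 in H196_Co, so fibroblast RNA was near 0 in both. Of 12 NE markers, 7 were listed in the MRC5 table, with sums of 1.73 to 2.35 CPM in MRC5_Mo, 1.13 to 2.35 in MRC5_coH69 and 1.51 to 2.44 in MRC5_coH196. For H196, 10 of the 12 were listed, with sums of 112.3 to 117.1 CPM in H196_Mo and 112.3 to 119.4 in H196_Co. In each H196 group 4 were at 1 CPM or more in every library. The NE markers CHGB and SCG2 were at 39.2 to 43.4 and 45 to 47.8 CPM in H196_Mo. In MRC5_Mo they were at 0.106 to 0.323 and 0.647 to 0.96 CPM. In MRC5_coH196 they were at 0.156 to 0.261 and 0.678 to 1.19 CPM. Of 6 markers of non-NE small cell lung cancer, all were also expressed by MRC5 alone. They summed to 10020 to 10270 CPM in MRC5_Mo, 9378 to 9520 in MRC5_coH69 and 13030 to 13560 in MRC5_coH196, where 6 of 6 were higher by adjusted p and 2 were DEGs (differentially expressed genes, with an adjusted p under 0.05 and a log2 fold change beyond the fold limit of 0.58). Epithelial markers summed to 127 to 135 CPM in MRC5_Mo, 152 to 169 in MRC5_coH69 and 132 to 140 in MRC5_coH196. In H196 they rose from 212 to 221 CPM in H196_Mo to 244 to 274 in H196_Co, with 3 of 3 tested genes higher by adjusted p. Of all tested genes 19.8% passed by adjusted p in H196_Co, in either direction. The part of these markers in the changes of the 10 genes was not tested.

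The 250 bases before the RefSeq start are shown for 3 members, because BNIP3 and FAM162A had the largest changes of the 10 genes and MAP1LC3B holds the same short motif with a smaller change. Capitals mark ACGTG and GCGTG, the core letters known to be bound by HIF, on either strand. Each sequence is read 5′ to 3′ on the strand of the gene. The BNIP3 stretch is chr10:131981924-131982173 (minus strand), that of FAM162A is chr3:122383932-122384181 (plus strand) and that of MAP1LC3B is chr16:87392086-87392335 (plus strand), all in RefSeq GRCh38.p14.
BNIP3: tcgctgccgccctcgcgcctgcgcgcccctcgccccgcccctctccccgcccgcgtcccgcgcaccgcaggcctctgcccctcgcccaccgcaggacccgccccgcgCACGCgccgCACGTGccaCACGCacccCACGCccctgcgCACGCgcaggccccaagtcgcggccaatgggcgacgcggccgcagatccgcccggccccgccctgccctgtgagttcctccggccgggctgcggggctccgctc
FAM162A: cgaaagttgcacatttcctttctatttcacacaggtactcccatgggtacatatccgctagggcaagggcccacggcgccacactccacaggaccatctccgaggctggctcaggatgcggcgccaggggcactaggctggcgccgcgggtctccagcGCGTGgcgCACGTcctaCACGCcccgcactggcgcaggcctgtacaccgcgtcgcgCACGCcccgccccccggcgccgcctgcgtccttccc
MAP1LC3B: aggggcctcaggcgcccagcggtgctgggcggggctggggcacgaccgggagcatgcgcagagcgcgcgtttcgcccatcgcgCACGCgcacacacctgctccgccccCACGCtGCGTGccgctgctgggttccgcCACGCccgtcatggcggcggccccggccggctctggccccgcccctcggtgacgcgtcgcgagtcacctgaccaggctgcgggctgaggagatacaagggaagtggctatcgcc

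Of the 10 genes, 8 had a promoter in the RefSeq table, and BNIP3L and PINK1 had none matched. BNIP3 held 6 matches of ACGTG or GCGTG between positions -143 and -104, counted back from the start with -1 as the last base before it. Of these, 2 are the overlapping strands of 1 CACGTG, at position -134. FAM162A held 4 matches between positions -92 and -36, MAP1LC3B held 4 matches of GCGTG between -167 and -114, and ULK1 held 1. None was present in the windows of FUNDC1, SQSTM1 (3 start sites), GABARAPL1 and WIPI1. Among all 35116 promoters of this length, 43.2% held at least 1 match, 3.22% held 4 or more and 0.646% held 6 or more. CACGTG was present in 6.34% of all promoters. GTAAACA, bound by FOXO factors, was present in 2.98% and was not found in the 8 members. These matches describe letters and not binding.

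BNIP3 and BNIP3L rose in fibroblasts co-cultured with H196, and FUNDC1, the third receptor, fell. The level of BNIP3 (gene ID 664, chr10:131967684-131981923 in GRCh38.p13) was 72.7, 73.6 and 70.2 FPKM in MRC5_Mo and 396, 408 and 442 FPKM in MRC5_coH196. FPKM is the authors' fragment count scaled by transcript length and library size. The groups did not overlap, and the log2 fold change was 2.70 ± 0.05 (SE, n = 3 per group), or 6.48-fold (edgeR quasi-likelihood test, adjusted p = 5.00e-24). By mean FPKM, BNIP3 moved from rank 1163 to rank 188 of the 16382 genes. In these bulk libraries a change in every cell and a change in the share of expressing cells cannot be told apart.

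BNIP3L (gene ID 665, chr8:26383054-26413127), also called NIX, was at 41.4, 39.6 and 36.0 FPKM in MRC5_Mo and at 153, 172 and 168 FPKM in MRC5_coH196. The log2 fold change was 2.25 ± 0.05, or 4.75-fold (edgeR, adjusted p = 1.52e-21), with no overlap between the groups. FUNDC1 (gene ID 139341, chrX:44523639-44542859) moved the other way, from 11.8, 10.98 and 10.6 FPKM to 8.14, 6.98 and 7.02 FPKM. Its log2 fold change of -0.42 ± 0.11 passed the test (edgeR, adjusted p = 0.00149) but not the fold limit, so it was no DEG. On the log2(FPKM + 0.1) scale it was -0.59 and just beyond the limit, where the median of all genes was -0.177. FUNDC1 rests on 99 to 174 counts per MRC5 library, the lowest of the 10 genes. Within a library BNIP3 was 6.48 times as abundant as FUNDC1 per length in MRC5_Mo and 56.4 times in MRC5_coH196, as geometric means over 3 libraries.

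FAM162A (gene ID 26355, chr3:122384176-122412334) had the largest log2 fold change of the 10 genes in MRC5_coH196. Its level was 7.63, 6.80 and 6.65 FPKM in MRC5_Mo and 47.9, 47.9 and 49.2 FPKM in MRC5_coH196. This is a log2 fold change of 2.96 ± 0.06, or 7.75-fold (edgeR, adjusted p = 1.11e-23). PINK1 (gene ID 65018, chr1:20633458-20651511) rose far less, from 41.1, 39.4 and 41.2 FPKM to 44.3, 45.3 and 47.5 FPKM, without overlap. Its log2 fold change was 0.34 ± 0.05 (edgeR, adjusted p = 2.62e-07). BNIP3L and PINK1 were at nearly the same level per length in MRC5_Mo, with a ratio of 0.960 (log2 ratio -0.06 ± 0.12, SD), and the ratio was 3.59 in MRC5_coH196.

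**Figure D1:**
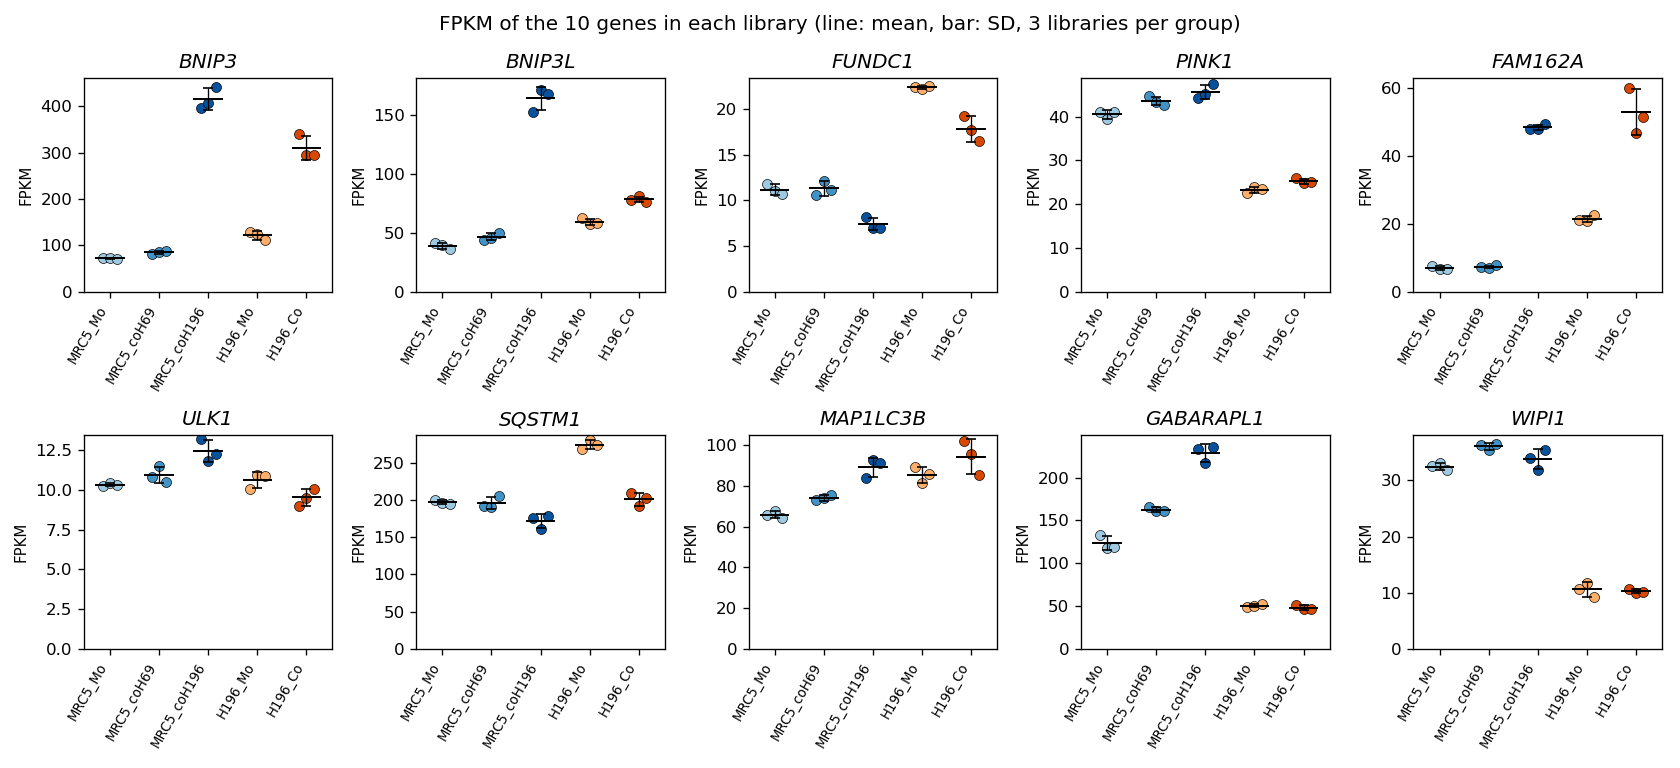
Points show the FPKM of each of the 10 genes (linear axes from 0, one panel per gene) in the 3 libraries of each group, with a line at the mean and a bar of 1 SD. BNIP3, BNIP3L and FAM162A stand highest in MRC5_coH196 or H196_Co without overlapping their mono-cultures, whereas FUNDC1 was lowest in MRC5_coH196, at 6.98 to 8.14 FPKM, and SQSTM1 highest in H196_Mo, at 268 to 281 FPKM.

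Both ATG8 genes rose in MRC5_coH196, with the larger estimate for GABARAPL1. GABARAPL1 (gene ID 23710, chr12:10212458-10223128) was at 133, 118 and 119 FPKM in MRC5_Mo and at 234, 217 and 236 FPKM in MRC5_coH196. The log2 fold change was 1.07 ± 0.05, or 2.10-fold (edgeR, adjusted p = 1.19e-15). MAP1LC3B (LC3B, gene ID 81631, chr16:87392336-87404774) was at 65.9, 67.7 and 64.3 FPKM in MRC5_Mo and at 84.0, 92.8 and 91.1 FPKM in MRC5_coH196. Its log2 fold change of 0.61 ± 0.04, or 1.52-fold (edgeR, adjusted p = 4.92e-12), lies just above the fold limit, and on the log2(FPKM + 1) scale it was 0.43 and below it. The nearly identical copy MAP1LC3B2 had 6.55 to 27.2 expected counts per library against 2228 to 3277 for MAP1LC3B. How reads shared by the 2 copies were assigned was not tested. GABARAPL3, a close relative of GABARAPL1, was listed under that symbol for neither line, and how reads shared with it were assigned is not known.

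ULK1, WIPI1 and SQSTM1, which act in initiation and cargo binding, stayed under the fold limit. ULK1 (gene ID 8408, chr12:131894622-131923150), the kinase that starts autophagosome formation, was at 10.3, 10.5 and 10.3 FPKM in MRC5_Mo and at 13.2, 11.9 and 12.3 FPKM in MRC5_coH196 (log2 fold change 0.45 ± 0.06, edgeR, adjusted p = 7.79e-08). WIPI1 (gene ID 55062, chr17:68421281-68457496), which binds the lipid PI3P on the growing membrane, had a log2 fold change of 0.22 ± 0.05 (edgeR, adjusted p = 0.000537). That call was lost on the log2(FPKM + 1) scale, at 0.05, where the median of all genes was -0.13. SQSTM1 (gene ID 8878, listed on no chromosome record) was at 199, 196.2 and 194 FPKM in MRC5_Mo and at 176, 160 and 178 FPKM in MRC5_coH196. Its log2 fold change on counts was -0.02, with a 95% interval of -0.12 to 0.07 (edgeR, adjusted p = 0.658). On the log2(FPKM + 1) scale it was -0.20 and passed the limma test (adjusted p = 0.00191). Within a library BNIP3 was at 0.367 times the level of SQSTM1 per length in MRC5_Mo and at 2.42 times in MRC5_coH196.

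In all, 5 of the 10 genes were DEGs in MRC5_coH196 against MRC5_Mo, all 5 higher, where 31.9% of the 12819 tested genes were DEGs and 17.2% were DEGs that were higher. On the log2(FPKM + 0.1) scale 4 members were DEGs that were higher and 1, FUNDC1, was lower. Over all tested genes 1437 DEGs were higher and 2869 lower there. With the adjusted p alone, 8 genes were higher and 1 lower, and of all tested genes 37.2% were higher and 37.1% lower, or 74.3% together. The groups did not overlap in CPM for 9 of the 10 genes and for 75.5% of all tested genes. The share of members that passed is therefore to be read against a comparison in which most genes did. The tested genes split into 2207 DEGs that were higher and 1885 lower, but into 915 and 2082 on the log2(FPKM + 1) scale. The sizes spread widely across the members. The log2 fold changes of FAM162A, BNIP3 and BNIP3L exceeded those of 99.2%, 99.1% and 98.6% of tested genes, and those of PINK1 and WIPI1 exceeded 72.2% and 64.9%.

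With H69 the differences were small, and 0 of the 10 genes were DEGs in MRC5_coH69 against MRC5_Mo in edgeR or in DESeq2, where 0.554% of tested genes were. At an unadjusted p under 0.05, 6 of the 10 passed in edgeR. The share of all tested genes at that limit was not counted, so this count has no background beside it. By adjusted p alone 4 were higher and none lower, against 3.78% of all tested genes higher and 6.7% in either direction. GABARAPL1, at 166, 161 and 161 FPKM, had the largest log2 fold change, 0.41 ± 0.05, or 1.32-fold (edgeR, adjusted p = 7.47e-06). BNIP3L was at 44.4, 46.0 and 50.3 FPKM and differed by 0.28 ± 0.05 (edgeR, adjusted p = 0.00190). BNIP3, at 81.8, 85.9 and 87.8 FPKM, differed by 0.24 ± 0.05 (edgeR, adjusted p = 0.00286). None of these 3 genes overlapped MRC5_Mo in CPM, a separation seen for 25.7% of all tested genes in either direction.

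MAP1LC3B was the fourth, at 72.9, 74.0 and 75.6 FPKM with H69, a log2 fold change of 0.18 ± 0.04 (edgeR, adjusted p = 0.0138). This call was lost without MRC5_Mo replicate 3 (adjusted p = 0.0990), without MRC5_coH69 replicate 2 (0.0550) and without MRC5_coH69 replicate 3 (0.0529), and on the log2(FPKM + 1) scale (0.0565). FAM162A was at 7.16, 7.04 and 7.73 FPKM with H69, and its log2 fold change was 0.07, with an interval of -0.07 to 0.21. For FUNDC1 the value was 0.02 (-0.20 to 0.23), for PINK1 0.11 (0.02 to 0.21), for ULK1 0.10 (-0.02 to 0.21), for WIPI1 0.16 (0.05 to 0.26) and for SQSTM1 0.00 (-0.09 to 0.10). These 6 did not pass the test.

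Against MRC5_coH69, the other co-culture, 4 of the 10 genes were DEGs in MRC5_coH196, and all 4 were higher, where 28.2% of tested genes were DEGs and 15.2% were DEGs that were higher. FAM162A was higher by 2.89 ± 0.06, BNIP3 by 2.45 ± 0.05, BNIP3L by 1.97 ± 0.05 and GABARAPL1 by 0.66 ± 0.05 on the log2 scale (edgeR, largest adjusted p of the 4 = 1.29e-11). MAP1LC3B (0.43), ULK1 (0.35) and PINK1 (0.23) were higher and FUNDC1 (-0.44) was lower by adjusted p alone, as 72.3% of all tested genes passed. WIPI1 (0.06, interval -0.04 to 0.17) and SQSTM1 (-0.03, interval -0.12 to 0.07) did not pass. Without MRC5_coH196 replicate 2, WIPI1 was at 0.12 and passed (adjusted p = 0.0433). GABARAPL1 fell below the fold limit on the log2(FPKM + 1) scale, at 0.49, and the call of PINK1 was lost there, at 0.07 (limma, adjusted p = 0.146). On the log2(FPKM + 0.1) scale FUNDC1, at -0.607, was a DEG that was lower, beside 3 members that were higher. This comparison and the preceding ones share libraries.

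**Figure D2:**
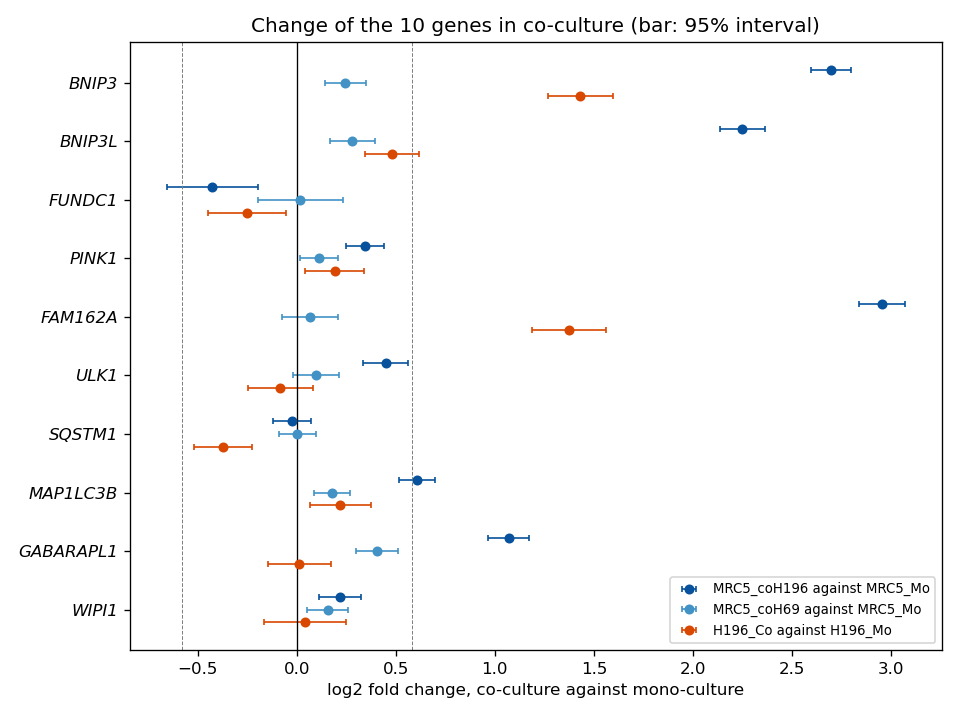
Points show the log2 fold change of each of the 10 genes against the mono-culture of the same line, with bars of the 95% interval from edgeR, and dashed lines at the fold limit of 0.58. BNIP3 and FAM162A lie beyond the limit in MRC5_coH196 (2.70 and 2.96) and H196_Co (1.43 and 1.37), BNIP3L, GABARAPL1 and MAP1LC3B only in MRC5_coH196 (2.25, 1.07 and 0.61) among these 3 comparisons, and no gene does in MRC5_coH69.

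On the other side of the insert, in H196 cells, BNIP3 and FAM162A rose with MRC5 co-culture and SQSTM1 fell. BNIP3 was at 130, 124 and 111 FPKM in H196_Mo and at 341, 295 and 294 FPKM in H196_Co, a log2 fold change of 1.43 ± 0.08, or 2.70-fold (edgeR, adjusted p = 6.28e-11). By mean FPKM it moved from rank 722 to rank 280 of the 16076 genes. FAM162A went from 21.2, 20.7 and 22.5 FPKM to 60.02, 46.7 and 51.4 FPKM, a log2 fold change of 1.37 ± 0.09, or 2.59-fold (edgeR, adjusted p = 9.51e-10). H196_Co replicate 1 was the highest library for both, and without it the changes were 1.35 and 1.26. These 2 were the only DEGs among the 10 genes, where 3.86% of the 12806 tested genes were DEGs and 3.26% were DEGs that were higher.

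BNIP3L rose from 62.6, 57.3 and 58.3 FPKM to 78.2, 81.1 and 76.5 FPKM, and its log2 fold change of 0.48 ± 0.07 (edgeR, adjusted p = 2.74e-05) stayed under the fold limit. The cargo receptor SQSTM1 fell from 268, 281 and 273 FPKM to 209, 191 and 202 FPKM. Its log2 fold change was -0.37 ± 0.07 (edgeR, adjusted p = 0.000988), which exceeded the value of only 3.69% of tested genes. MAP1LC3B was at 89.2, 81.6 and 85.9 FPKM and then at 102, 95.9 and 85.4 FPKM, groups that overlap in FPKM. Its log2 fold change was 0.22 ± 0.07 (edgeR, adjusted p = 0.0405), a call that was lost when any library other than H196_Co replicate 3 was left out, with adjusted p from 0.0575 to 0.160, and on the log2(FPKM + 1) scale, at 0.14 (limma, adjusted p = 0.184).

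The remaining 5 genes did not pass in H196_Co, where 19.8% of all tested genes passed by adjusted p. Between H196_Mo and H196_Co, 37.2% of all tested genes did not overlap in CPM. FUNDC1 went from 22.4, 22.2 and 22.5 FPKM to 19.2, 17.7 and 16.4 FPKM, without overlap there, and its log2 fold change was -0.25 ± 0.10 (edgeR, adjusted p = 0.0689). It passed on the log2(FPKM + 1) scale, at -0.32 (limma, adjusted p = 0.0106), and without H196_Co replicate 1 in edgeR (-0.32, adjusted p = 0.0380). PINK1 differed by 0.19 (interval 0.04 to 0.34, edgeR, adjusted p = 0.0650). ULK1 differed by -0.08 (-0.24 to 0.08), WIPI1 by 0.04 (-0.16 to 0.25) and GABARAPL1 by 0.01 (-0.14 to 0.17). GABARAPL1 was at 48.6, 50 and 51.9 FPKM alone and at 51.3, 46.0 and 46.2 FPKM with MRC5.

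The response of MRC5 to H196 was larger than that of H196 to MRC5 for 4 of the 10 genes beyond the fold limit, a difference between log2 fold changes that was tested as an interaction over the 15 libraries. It was 1.74 ± 0.08 for BNIP3L (edgeR, adjusted p = 1.19e-15), 1.55 ± 0.11 for FAM162A (4.98e-12), 1.24 ± 0.09 for BNIP3 (7.82e-12) and 1.03 ± 0.09 for GABARAPL1 (2.51e-10). Of all 13585 genes tested, 24.7% passed the same limits, 12.1% in this direction. By adjusted p alone the differences for ULK1 (0.51), MAP1LC3B (0.36) and SQSTM1 (0.32) passed too, as did those of 51.2% of all genes. The differences for FUNDC1 (-0.20, interval -0.49 to 0.09), PINK1 (0.13, -0.03 to 0.29) and WIPI1 (0.15, -0.07 to 0.37) did not pass. PINK1 passed without MRC5_coH196 replicate 1 (0.199, adjusted p = 0.0485) and without MRC5_coH196 replicate 2 (0.198, adjusted p = 0.0477). MRC5 and H196 wells differ in cell line as well as in partner, and the 2 cannot be told apart.

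**Figure D3:**
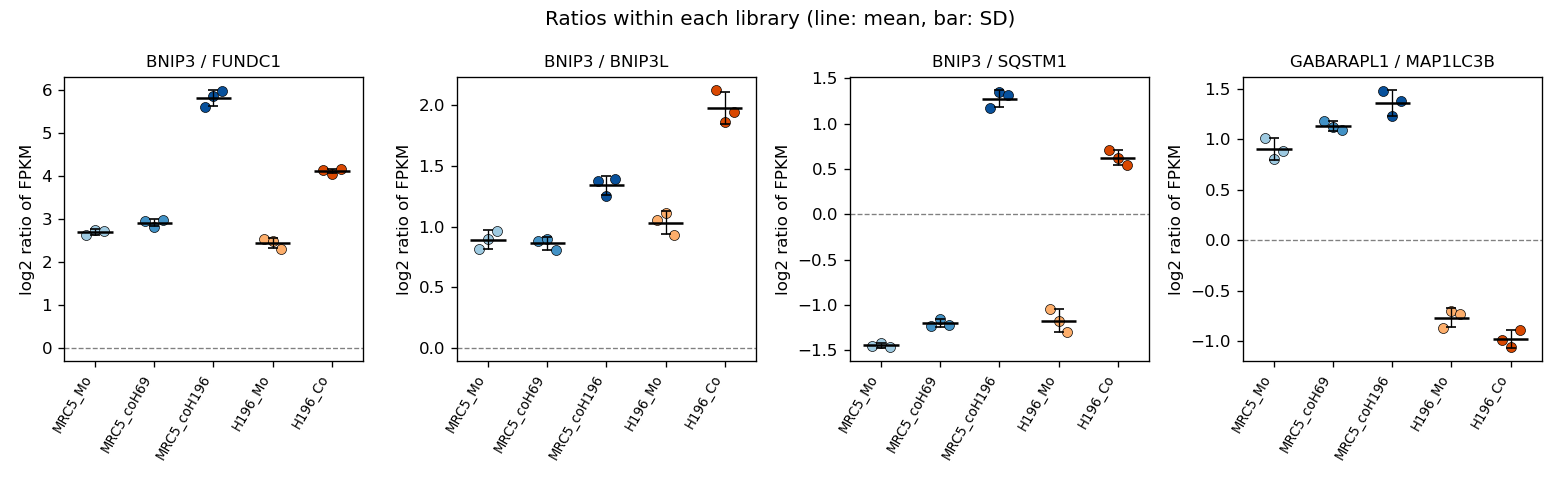
Points show the log2 ratio of the FPKM of 2 genes within each library, by group, with a line at the mean and a bar of 1 SD, and a dashed line where both genes are equal. BNIP3 lies below SQSTM1 in both mono-cultures and with H69 (ratios 0.367, 0.443 and 0.436) and above it in MRC5_coH196 (2.42) and H196_Co (1.54), and GABARAPL1 lies above MAP1LC3B in every MRC5 library and below it in every H196 library.

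Ratios within a library showed how the 10 genes shifted against each other. BNIP3 was 5.43 times as abundant as FUNDC1 per length in H196_Mo and 17.4 times in H196_Co, as geometric means. The ratio of BNIP3 to BNIP3L went from 1.86 to 2.53 between MRC5_Mo and MRC5_coH196, and from 2.04 to 3.94 between H196_Mo and H196_Co. The ratio of GABARAPL1 to MAP1LC3B was 1.87 in MRC5_Mo, 2.19 in MRC5_coH69 and 2.56 in MRC5_coH196, and it was 0.586 in H196_Mo and 0.507 in H196_Co. These ratios carry no test.

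The lines also differed before co-culture. In counts normalized over both tables, MRC5_Mo was higher than H196_Mo in WIPI1 by 2.05 ± 0.07, in GABARAPL1 by 1.75 ± 0.06 and in PINK1 by 1.24 ± 0.06, and lower in FAM162A, at -1.17 ± 0.08 (log2, edgeR, largest adjusted p of the 4 = 2.87e-13). These 4 of 10 were DEGs, where 61.7% of all genes were. By adjusted p alone ULK1 was higher (0.40), and FUNDC1 (-0.56), BNIP3 (-0.31) and BNIP3L (-0.17) were lower, where 86.6% of all genes passed. The call of BNIP3L was lost without MRC5_Mo replicate 3 (-0.11, adjusted p = 0.107). MAP1LC3B (0.07) and SQSTM1 (-0.04) did not pass on counts. On the log2(FPKM + 1) scale, where the median of all genes was -0.34, MAP1LC3B (-0.37) and SQSTM1 (-0.48) were lower in MRC5_Mo and ULK1 was at -0.04.

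Ordered by mean CPM over both tables, BNIP3 stood at 642 ± 40.3 (SD, n = 3) in MRC5_coH196, 337 ± 31.5 in H196_Co, 124 ± 8.13 in H196_Mo, 118 ± 3.90 in MRC5_coH69 and 99.8 ± 2.23 in MRC5_Mo. Only H196_Mo and MRC5_coH69, neighbours in this order, overlapped. BNIP3L had the same first pair, at 639 ± 34.0 and 215 ± 5.01 CPM, and MRC5_coH69 and H196_Mo overlapped. FAM162A followed BNIP3 in order, from 164 ± 4.69 CPM in MRC5_coH196 to 21.4 ± 1.65 in MRC5_Mo, with an overlap of MRC5_coH69 and MRC5_Mo. FUNDC1 was highest in H196_Mo, at 13.96 ± 0.33 CPM, and lowest in MRC5_coH196, at 6.99 ± 0.73, and MRC5_coH69 and MRC5_Mo overlapped.

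PINK1 had 5 groups without overlap, from 133 ± 5.77 CPM in MRC5_coH196 to 44.7 ± 2.004 in H196_Mo. The order of ULK1 began with MRC5_coH196 (75.4 ± 5.12), MRC5_coH69 and MRC5_Mo, and H196_Mo and H196_Co (40.2 ± 2.09) overlapped. GABARAPL1 ran from 447 ± 27.0 CPM in MRC5_coH196 to 63.7 ± 3.39 in H196_Mo, and WIPI1 from 66.5 ± 4.43 to 13.9 ± 1.65 in the same groups, with an overlap of H196_Co and H196_Mo in both and of MRC5_coH196 and MRC5_coH69 in WIPI1. MAP1LC3B was at 204 ± 8.81 CPM in MRC5_coH196 and 129 ± 3.91 in H196_Mo, and MRC5_coH69, H196_Co and MRC5_Mo, between them, overlapped with their neighbours. SQSTM1 separated only H196_Co, at 443 ± 24.8 CPM, from 4 overlapping groups with means of 539 to 566.

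SLC2A1, DDIT4 and FAM162A, in this order, had the profiles most like that of BNIP3 among 9792 genes with a mean of at least 10 CPM, by Euclidean distance between group means of log2 CPM centred on the mono-culture of the same line (0.177, 0.255 and 0.318). SLC2A1, the glucose transporter GLUT1, was at 2.69 in MRC5_coH196, 0.19 in MRC5_coH69 and 1.28 in H196_Co on this scale, and BNIP3 at 2.68, 0.24 and 1.44. DDIT4, an inhibitor of mTORC1, was at 2.58, 0.10 and 1.63. The likeness covers 5 groups and is a description.

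Genes on a list of HIF targets moved in the same comparisons. All 16 were DEGs that were higher in MRC5_coH196, where 17.2% of all tested genes were. Their median log2 fold change was 2.91 against -0.003 for all genes. The list was chosen with earlier results of these data known. CA9 (7.06), EGLN3 (6.07), ANKRD37 (5.02) and NDRG1 (4.93) had the largest changes of the list. In MRC5_coH69 0 of 16 were DEGs in edgeR or DESeq2 and 7 were higher by adjusted p, with a median of 0.27. Over all tested genes 0.554% were DEGs there in edgeR and 3.78% were higher by adjusted p. In H196_Co 14 of the 16 were tested, and all 14 were DEGs that were higher, where 3.26% of all tested genes were. Their median was 1.07. CA9 (0 to 1 counts per H196 library) and EGLN3 (0 to 5) were too low in H196 to be tested. From western blots of tumor cells, the study reported no change of the HIF protein HIF-1α in H196 after co-culture with MRC5. Nothing was tested that ties the listed genes to that protein or to the members.

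The other autophagy genes moved both ways. Without the 10 members, 78 genes of the autophagy machinery lists were tested in MRC5, and 7 were DEGs that were higher and 4 that were lower in MRC5_coH196, where 17.2% and 14.7% of all tested genes were. By adjusted p 40 were higher, 21 lower and 17 did not pass, where 74.3% of all genes passed, and the median log2 fold change was 0.21 against -0.003 for all genes. On the log2(FPKM + 1) scale 23 of the 78 were higher and 33 lower by adjusted p. Their median there was -0.002 against -0.133 for all genes, whose DEGs were 915 higher and 2082 lower. The median of the 78 was thus above that of all genes on both scales, while the sign of single small differences depends on the scaling. In MRC5_coH69 0 of these 78 passed in edgeR or DESeq2, and 12 had an unadjusted p under 0.05 in edgeR and 7 in DESeq2. The share of all tested genes at this unadjusted limit was not counted. In H196_Co 79 were tested, of which 5 were higher and 6 lower by adjusted p, with 1 DEG and a median of -0.03, where 19.8% of all genes passed by adjusted p and 3.86% were DEGs.

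Among the genes that form the phagophore, WDR45B, a PI3P-binding relative of WIPI1 also called WIPI3, was a DEG in both lines. It was at 47.2 ± 0.61 FPKM (SD, n = 3) in MRC5_Mo and 96.6 ± 2.58 in MRC5_coH196, a log2 fold change of 1.22 ± 0.05 (SE, edgeR, adjusted p = 7.72e-18), and at 46.9 ± 2.32 in MRC5_coH69. In H196 it went from 82.2 ± 2.02 to 130 ± 7.48 FPKM, a log2 fold change of 0.75 ± 0.07. TMEM41B, a lipid scramblase, rose by 0.66 ± 0.06 in MRC5_coH196, but by 0.37 and under the fold limit on the log2(FPKM + 1) scale. In the ULK complex, RB1CC1 (FIP200), its scaffold, rose by 0.99 ± 0.05 from 7.55 to 13.3 FPKM, and was at 24.1 and 22.4 FPKM in H196_Mo and H196_Co. None of the 8 genes of the PI3K complex was a DEG in MRC5_coH196 in edgeR or DESeq2, where 5 were higher and 2 lower by adjusted p. Over all tested genes 37.2% were higher and 37.1% lower by adjusted p there.

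In the ATG8 family 4 of 6 tested genes were DEGs that were higher in MRC5_coH196, the members GABARAPL1 and MAP1LC3B with MAP1LC3A (0.69 ± 0.06) and GABARAPL2 (0.65 ± 0.05). For all tested genes the share of such DEGs was 17.2%. By FPKM (log2(FPKM + 1) scale) 4 of the 6 were still higher by adjusted p, but GABARAPL1 was the only DEG, with MAP1LC3A at 0.51 and GABARAPL2 at 0.47. The list had a median of 0.63 on counts and 0.45 on that scale. Of 11 genes that attach ATG8 proteins to lipid, 1 was a DEG, ATG16L2 (1.08 ± 0.09), and by adjusted p 3 were higher and 5 lower. By the same limit 37.2% of all tested genes were higher and 37.1% lower in MRC5_coH196. Among 9 tested cargo receptors OPTN was the only DEG, rising by 0.71 ± 0.05 from 48.2 to 69.6 FPKM, and the median of the list was 0.29, with 6 higher and 0 lower by adjusted p. OPTN was at 0.52 on the log2(FPKM + 1) scale and no longer a DEG there, 4 of the 9 were higher and 3 lower, and the median was 0.12. The median of all genes was -0.133 on that scale. In H196_Co no gene of these 3 lists was a DEG in edgeR or DESeq2. By adjusted p 1 of 27 was higher there, MAP1LC3B, and 2 were lower, where 19.8% of all tested genes passed.

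The lists of mitochondrial quality control moved both ways. In the list of 8 mitophagy receptors only BNIP3 and BNIP3L were DEGs in MRC5_coH196, and the median of the list was -0.05. Over all tested genes 31.9% were DEGs in this comparison, and by adjusted p 37.2% were higher and 37.1% lower. In the PINK1 pathway list 5 genes were higher and 6 lower by adjusted p, and PGAM5, a mitochondrial phosphatase known to dephosphorylate FUNDC1, fell by 0.94 on the log2 scale, from 13.3 to 6.05 FPKM. All 5 genes of a list that restrains mitophagy were higher by adjusted p but under the fold limit, with a median of 0.28. On the log2(FPKM + 1) scale only 1 of the 5 passed, and the median was 0.08 against -0.133 for all genes. FBXL4 (0.42) and PPTC7 (0.32), which are known to promote the turnover of BNIP3 and BNIP3L proteins, are 2 of these, and were named after their values were seen. In H196_Co none of the 5 passed in edgeR or DESeq2, adjusted or not, where 19.8% of all tested genes passed by adjusted p.

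Among genes of the mitochondrial outer membrane, TOMM40 (-1.18 ± 0.05), the channel of the import complex, and TOMM22 (-0.85 ± 0.05) fell in MRC5_coH196 and TOMM20 (0.65 ± 0.04) rose. TOMM20 was under the fold limit on the log2(FPKM + 1) scale, at 0.47. The list of 9 had a median of -0.32. Of 10 fission and fusion genes 7 were lower and 1 higher by adjusted p, and the protease gene OMA1 (-0.86 ± 0.17) was the DEG. Over all tested genes 37.1% were lower and 37.2% higher by adjusted p, and 31.9% were DEGs. None of the 19 genes of these 2 lists was a DEG in H196_Co in edgeR or DESeq2, and 2 were higher by adjusted p. There 3.86% of all tested genes were DEGs in edgeR and 19.8% passed by adjusted p. In both lists the median in H196_Co was near 0, at 0.01 and -0.07.

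Genes of late steps were split in direction. Of 14 genes for fusion with the lysosome, YKT6 (-0.62 ± 0.04), VPS33A (-0.63 ± 0.06) and VPS18 (-0.60 ± 0.06) were DEGs that were lower in MRC5_coH196. Over all tested genes 31.9% were DEGs in this comparison, and by adjusted p 37.2% were higher and 37.1% lower. Of 18 TFEB-family and lysosomal genes, HEXA (0.63 ± 0.05) rose and ATP6V0D1 (-0.74 ± 0.05), a subunit of the proton pump, fell, with 7 higher and 8 lower by adjusted p and a median of 0.00. HEXA was under the fold limit on the log2(FPKM + 1) scale, at 0.44, and the median there was -0.14 against -0.133 for all genes. FOXO3 (0.99 ± 0.05) and FOXO4 (0.74 ± 0.14), encoding transcription factors known to act on autophagy genes, were DEGs that were higher in MRC5_coH196, of which FOXO4 was under the fold limit on the log2(FPKM + 1) scale, at 0.36.

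BNIP3 and BNIP3L are distant members of the BCL2 family. Of 11 other genes of that family tested in MRC5, BCL2 (-1.22 ± 0.25) and BAK1 (-0.78 ± 0.06) fell in MRC5_coH196, and the BH3-only genes BMF (0.72 ± 0.15) and BBC3 (0.70 ± 0.11) rose. The level of BCL2 was low, at 0.43 FPKM in MRC5_Mo and 0.17 in MRC5_coH196. Over all tested genes 31.9% were DEGs in this comparison. On the log2(FPKM + 1) scale BMF (0.36), BBC3 (0.44) and BCL2 (-0.29) passed by adjusted p but not the fold limit, and the median of the list went from 0.20 to 0.003. The median of all genes was -0.133 on that scale. In H196_Co BMF was the DEG of this list, and it fell by 0.81 on the log2 scale, from 6.17 to 3.36 FPKM. The difference between the lines for BMF was 1.505 ± 0.195 (edgeR interaction, adjusted p = 3.14e-07).

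**Figure D4:**
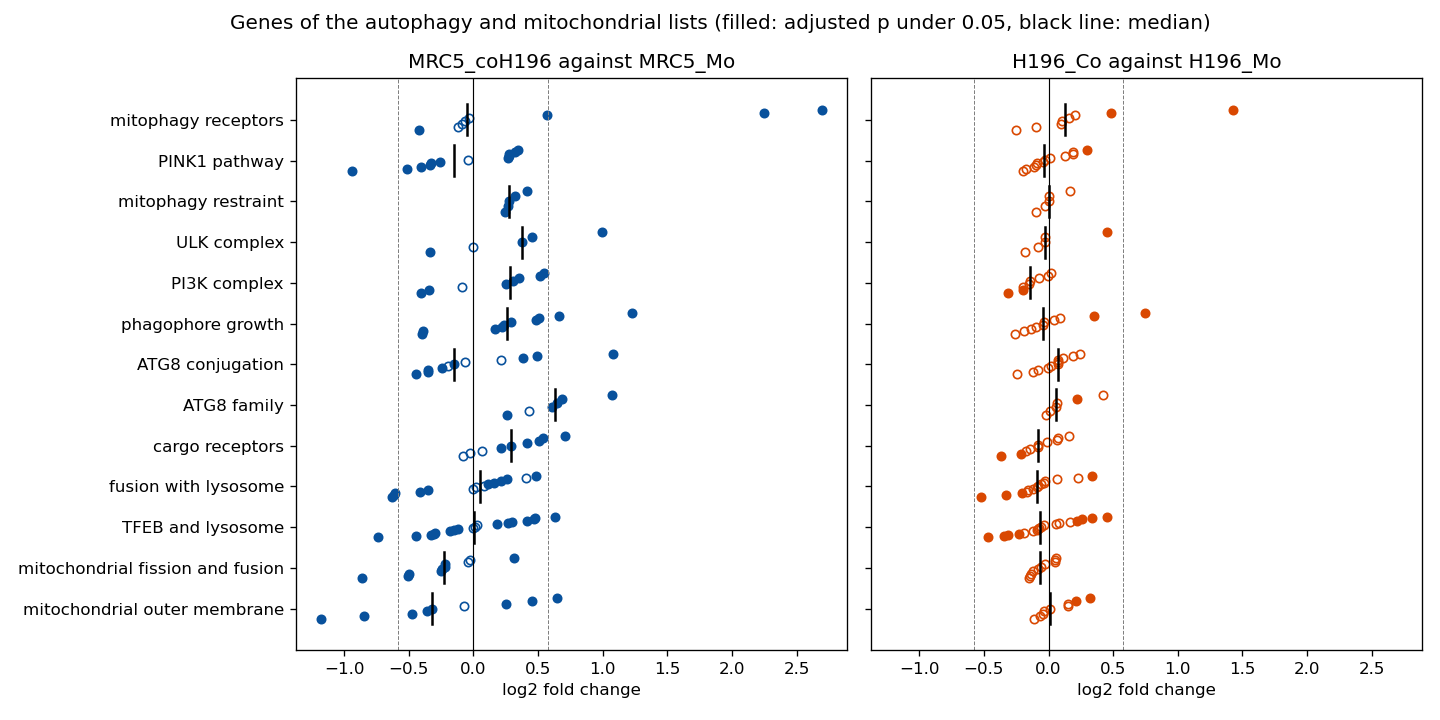
Points show the log2 fold change of each tested gene of 13 lists in MRC5_coH196 against MRC5_Mo (left) and H196_Co against H196_Mo (right), members included, filled where the adjusted p was under 0.05, with a black line at the median of the list and dashed lines at the fold limit of 0.58. BNIP3 (2.70) and BNIP3L (2.25) stand apart at the right of the receptor list in MRC5, the ATG8 family has a median of 0.63 there, and most points in H196 are open and near 0.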

How the data were processed

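RNA from 15 libraries of MRC5 or H196 cells was analysed from 1 deposited table per line. Per the study's methods and the submitters' processing notes, the authors captured mRNA with oligo(dT) beads, sequenced it on the BGIseq-500, cleaned the reads with SOAPnuke, and used HISAT2 2.1.0 against GRCh38.p13, Bowtie2 2.3.4.3 against gene sequences and RSEM 1.3.1. The deposited expected counts are the authors' estimated counts per gene, not normalized, of which 93.7% (MRC5) and 92.1% (H196) were whole numbers. The deposited FPKM values are also the authors', in 1 table per line. TPM and normalized-count columns (18 in MRC5, 12 in H196), group averages and the authors' own fold changes, p-values and q-values were not used here.

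After rounding to whole numbers, the expected counts went into edgeR 4.0.16 under R 4.3.3 (filterByExpr, TMM, two-sided quasi-likelihood tests, Benjamini-Hochberg adjustment over all tested genes). The 9 MRC5 libraries were fitted together, the 6 H196 libraries together, and all 15 over the 15320 genes in both tables for the interaction and the comparison of mono-cultures. DEGs met both limits, an adjusted p below 0.05 and a log2 fold change of more than 0.58 in size. Intervals are at 95%. A count of 0 allows up to 0.156 to 0.187 CPM (3 counts). Depth limits precision, and such limits cover counting error only. Replicate libraries of a group differed by more than sampling noise (chi-square per degree of freedom 1.87 to 10.7). The fits were tested on simulated data.

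All 10 members are named. Of each pathway list, up to 4 DEGs per comparison with the largest absolute change are named, plus close copies of members and the 3 genes most like BNIP3. The members and lists were chosen with earlier results of these data known. A gene of the PINK1 pathway list is not reported here. Promoters are RefSeq sequences of GRCh38.p14. Alternatives were DESeq2 1.42.0 (size factors and Wald test), limma 3.58.1 on log2(FPKM + 1) and log2(FPKM + 0.1), 2 other low-count filters, 2 other fold limits, each library left out, the fit of only the compared groups, and a block for replicate number. An exact permutation test of 3 against 3 libraries cannot fall below 0.1 and was not used.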

Additional observations from a re-analysis of the deposited data

Results flagged for a closer look

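For 7 of the 10 genes the response of MRC5 to H196 differed from that of H196 to MRC5 in the edgeR interaction test over the 15 libraries. By adjusted p 51.2% of all 13585 tested genes passed the same test. On the log2 scale the MRC5 response was larger by 1.24 for BNIP3 (adjusted p = 7.82e-12), by 1.74 for BNIP3L (1.19e-15), by 1.55 for FAM162A (4.98e-12) and by 1.03 for GABARAPL1 (2.51e-10). The differences were 0.51 for ULK1 (5.57e-05), 0.36 for MAP1LC3B (0.000479) and 0.32 for SQSTM1 (0.00127), below the fold limit. ULK1 passed in MRC5 (0.45) and not in H196 (-0.08), and on counts SQSTM1 passed in H196 (-0.37) and not in MRC5 (-0.02). On both FPKM scales SQSTM1 passed in MRC5 too (-0.20 on log2(FPKM + 1), limma, adjusted p = 0.00191). Each group holds 3 libraries, and all 7 interaction calls held under every alternative run.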

How the results depend on the processing

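By adjusted p the calls of BNIP3, BNIP3L, FAM162A and GABARAPL1 in MRC5_coH196 against MRC5_Mo, and of BNIP3, BNIP3L and FAM162A in H196_Co, held under all alternatives run, with log2 fold changes of 2.51 to 2.73 for BNIP3 and 2.62 to 3.02 for FAM162A in MRC5_coH196. Over all comparisons, alternatives other than a left-out library gave 438 values with the same direction and call, 9 that lost a call, 9 that gained one and 14 that turned. Those that turned were on the log2(FPKM + 1) and log2(FPKM + 0.1) scales GABARAPL1 (-0.069 and -0.070) and WIPI1 (-0.030 and -0.032) in H196_Co, WIPI1 in MRC5_coH196 against MRC5_coH69 (-0.092 and -0.095), and MAP1LC3B (-0.370 and -0.374) and ULK1 (-0.036 and -0.039) in MRC5_Mo against H196_Mo. SQSTM1 in MRC5_coH69 turned to -0.003 with DESeq2 size factors and with the Wald test and to -0.008 on both FPKM scales. On the log2(FPKM + 1) scale the median of all genes was -0.13 in MRC5_coH196 and -0.34 between mono-cultures. Leaving out a library turned values near 0: SQSTM1 ranged from -0.055 to 0.037 in MRC5_coH196 against MRC5_Mo, from -0.056 to 0.036 against MRC5_coH69, and from -0.027 to 0.018 in MRC5_coH69, FUNDC1 from -0.046 to 0.065 in MRC5_coH69, and GABARAPL1 from -0.050 to 0.051 and WIPI1 from -0.032 to 0.137 in H196_Co. On both FPKM scales SQSTM1 gained a call in 3 comparisons and FUNDC1 in H196_Co, as did WIPI1 in MRC5_coH69 with only the compared groups fitted, while WIPI1 in MRC5_coH196, PINK1 in MRC5_coH196 against MRC5_coH69 and MAP1LC3B in MRC5_coH69 and H196_Co lost theirs.

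Without a fold limit 9, 4, 8, 5, 7 and 8 members passed, and 9522, 859, 9269, 2538 and 6958 genes in the first 5 comparisons, in the order MRC5_coH196 and MRC5_coH69 against MRC5_Mo, MRC5_coH196 against MRC5_coH69, H196_Co against H196_Mo, the interaction and MRC5_Mo against H196_Mo. With a limit of 1 the DEGs of the first 5 numbered 1564, 9, 1353, 147 and 1257. On the log2(FPKM + 1) scale there were 18 in MRC5_coH69 and 195 in H196_Co, with DESeq2 44 in MRC5_coH69, and 7 members were DEGs between the mono-cultures on both FPKM scales. DEGs higher and lower were 54 and 17 in MRC5_coH69 (17 and 1 on the log2(FPKM + 1) scale), 1943 and 1675 in MRC5_coH196 against MRC5_coH69 (821 and 1746), 1644 and 1713 in the interaction (822 and 1560), and 4100 and 4279 between mono-cultures (2451 and 5277). In H196_Co they were 417 and 77 (306 and 111 on the log2(FPKM + 0.1) scale). The medians of the ATG8, HIF, mitophagy restraint, outer membrane and fission and fusion lists in MRC5_coH196 kept their sign under 4 alternatives chosen after seeing the data, as were the FPKM values of other list genes. The replicate number as a block left 4088, 70, 3612, 471, 3338 and 8378 DEGs in the 6 comparisons and ended only the call of MAP1LC3B in H196_Co (0.22, adjusted p = 0.0687). Same-numbered libraries had correlations of deviations of -0.151 to 0.081 over 12 pairs. These values gave no sign that the numbers pair the samples but cannot exclude it. The causes of these changes were not tested.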
